A study of Arabidopsis thaliana with 32 samples.

Results

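The transcriptional response of wild-type Arabidopsis thaliana seedlings to the synthetic auxin 1-naphthaleneacetic acid (NAA) was described across gene functions beyond the early auxin families. Of the 34262 genes in the deposited expression table, the 18072 with a mean of at least 1 RPKM (a read count scaled to transcript length and to the mapped reads of the library) over the RNA-seq libraries were tested. The comparison set 3 libraries of wild-type seedlings given NAA at 50 µM during 3 h when 15 days old against 3 libraries of wild-type seedlings mock-treated for the same time. Whole seedlings were grown on sucrose-containing medium in long days, and polyadenylated RNA was sequenced. The 6 libraries of the fip37 LEC1:FIP37 genotype, 3 mock-treated and 3 given the same NAA treatment at the same age, entered the model so that all 4 groups shared a single estimate of spread per gene. FIP37 belongs to the enzyme complex that places N6-methyladenosine on mRNA, and in that genotype a FIP37 transgene is driven by the promoter of LEC1, an embryo gene. The labels do not say that the libraries of a group came from separate cultures, so the spread behind every p-value is that between these libraries and may be technical.

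Auxin is perceived in the nucleus by TIR1/AFB receptors, which mark Aux/IAA repressors for destruction and so free ARF transcription factors to act on their targets. The Aux/IAA, SAUR, GH3 and LBD families respond within minutes to hours and serve as the usual readout. Over hours auxin also alters cell walls, water and nutrient transport, lateral root formation and the other hormones, and NAA, as a small organic acid foreign to the plant, meets the detoxification enzymes as well.

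The third NAA library stood apart from the other two, and results are therefore given with and without it. On the log2(RPKM + 1) scale, the third library was 2-fold or more away from the average of the other NAA libraries at 1711 genes (9.47% of those tested), 755 of them higher and 956 lower. The same distance was reached by 358 and 321 genes in the first and the second NAA library and by 23 to 65 genes in the mock libraries. The first and second NAA libraries differed at least 2-fold from each other at 63 genes. Depth relative to the first mock library ran from 100% to 152%, and 22754 to 23293 genes were above 0 per library. The read totals are not held in the table, so the depth itself is unknown.

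With all libraries, 1509 genes (8.35% of those tested) were called by limma (Benjamini-Hochberg adjusted p under 0.05), 605 higher with NAA (3.35%) and 904 lower (5.0%). Of these, 265 rose and 164 fell by at least 2-fold. Fold changes are differences of mean log2(RPKM + 1), which understate the change of genes near or below 1 RPKM. The early auxin families supplied 50 of the rises and 5 of the falls, which left 555 rises and 899 falls among other genes. The median log2 fold change of all genes tested was -0.06. Without the third NAA library 4119 genes (22.8%) were called, 1943 higher (10.8%) and 2176 lower (12.04%), and 1483 of the 1509 were among them with the same direction. The mock and NAA values did not overlap for 603 of the 605 rises and 903 of the 904 falls, while over all genes tested the 6 values separated with NAA higher at 9.64% and with NAA lower at 21.6%. None (0) of the 1509 had the value of the third NAA library on the other side of the mock mean. The calls already used these libraries, and a value far from the others of its group widens the spread and hinders a call. The non-overlap among called genes and the count of 0 therefore follow largely from the selection, and are not evidence that the libraries agreed. The NAA change differed from that in fip37 LEC1:FIP37 at 306 genes (1.69%), tested as the difference of the changes in the same model. The balance of directions depended on scaling, since median-ratio scaling of the libraries gave 872 higher and 683 lower calls. Leaving out the mock libraries, taken from the first to the last, the calls were 333 higher and 318 lower, 339 higher and 293 lower, and 284 higher and 193 lower. Without the first NAA library they were 462 higher and 543 lower, and without the second 418 higher and 261 lower.

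The largest changes outside the early auxin families were taken among genes called with and without the third NAA library whose mock and NAA values did not overlap. Of the 10 largest such rises, 5 were detoxification genes, and the 10 largest falls included genes for the cell wall, iron uptake, water transport, sulfur limitation and glucosinolates. The third NAA library had the highest value in 9 of the 10 largest rises, ACS4 being the exception. GSTU25 and GSTU24, neighbouring genes for tau-class glutathione transferases that conjugate glutathione to reactive compounds, showed 2 of the 3 largest rises. GSTU25 stood at 4.42, 4.05 and 4.20 RPKM in mock and 63.4, 36.0 and 192 RPKM with NAA, a log2 fold change of 3.89 ± 0.48 (SE, limma adjusted p = 5.74e-04). GSTU24 stood at 8.09, 11.5 and 9.31 RPKM in mock and 92.8, 66.4 and 224 RPKM with NAA, a log2 fold change of 3.41 ± 0.33 (SE, limma adjusted p = 1.21e-04). Their sequences are similar, and the division of reads between them is uncertain. UGT74E2, which encodes a glucosyltransferase of the auxin precursor indole-3-butyric acid, stood at 4.10, 5.25 and 6.24 RPKM in mock and 52.8, 30.5 and 114 RPKM with NAA, a log2 fold change of 3.24 ± 0.40 (SE, limma adjusted p = 5.74e-04). CYP81D11, a cytochrome P450 gene raised by xenobiotics, stood at 11.0, 11.8 and 14.5 RPKM in mock and 56.0, 54.4 and 381 RPKM with NAA, a log2 fold change of 2.99 ± 0.55 (SE, limma adjusted p = 0.00720). Its first and second NAA libraries were close together and the third lay far above them. Of the rises without a gene name in the annotation used, AT1G60750 stood at 0.298, 0.197 and 0.465 RPKM in mock and 18.6, 10.9 and 19.6 RPKM with NAA, a log2 fold change of 3.68 ± 0.38 (SE, limma adjusted p = 1.93e-04). AT4G08555 stood at 16.9, 14.4 and 13.6 RPKM in mock and 73.6, 104 and 371 RPKM with NAA, a log2 fold change of 3.17 ± 0.47 (SE, limma adjusted p = 0.00198). AT3G60650 stood at 0.108, 0.323 and 0.422 RPKM in mock and 6.72, 7.03 and 12.9 RPKM with NAA, a log2 fold change of 2.90 ± 0.22 (SE, limma adjusted p = 2.17e-05). AT1G60750 and AT3G60650 were below 0.5 RPKM in all 3 mock libraries, while AT4G08555 was not.

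**Figure D1:**
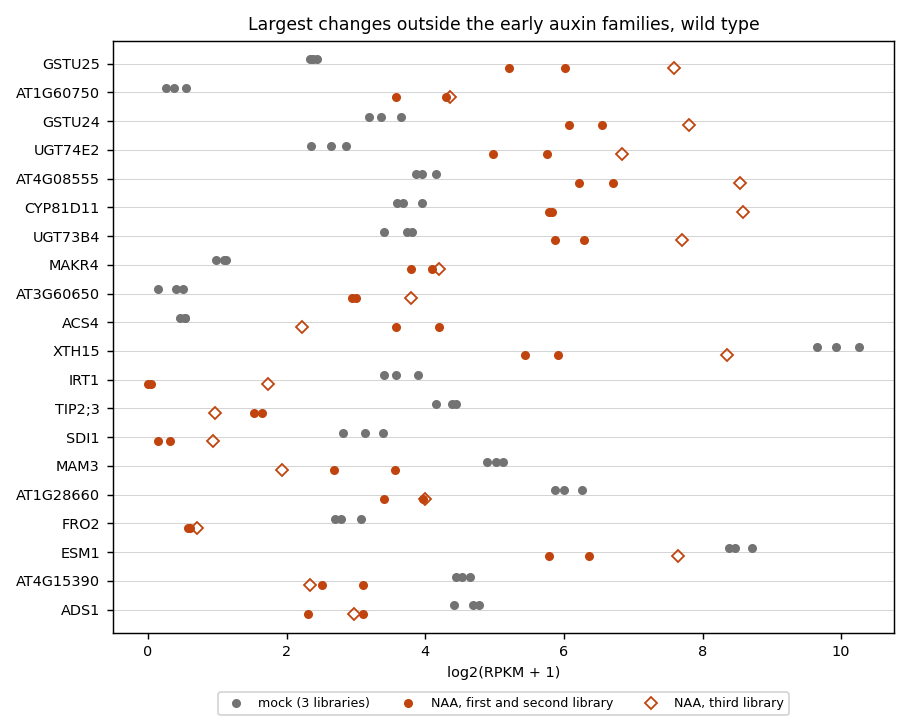
Expression of the 10 largest rises and 10 largest falls outside the early auxin families, as log2(RPKM + 1) on the x axis, with a point for each of 3 mock and 3 NAA libraries of wild type. The genes were chosen among those whose groups do not overlap. The third NAA library (open diamonds) lies above the other two for the detoxification genes GSTU25, GSTU24, UGT74E2, CYP81D11 and UGT73B4.

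Among the falls, XTH15, for an enzyme that cuts and rejoins xyloglucan in the wall, stood at 803, 969.8 and 1222 RPKM in mock and 59.4, 42.4 and 325 RPKM with NAA, a log2 fold change of -3.37 ± 0.57 (SE, limma adjusted p = 0.00442). Of its NAA values the third was much closer to mock than the other two. IRT1, the main iron transporter of the root epidermis, stood at 9.55, 11.0 and 13.9 RPKM in mock and 0.0275, 0 and 2.32 RPKM with NAA, a log2 fold change of -3.04 ± 0.36 (SE, limma adjusted p = 4.15e-04). The second NAA library is listed at 0, and the third again lay between the others and mock. AT1G28660 and AT4G15390, which have no name in the annotation used, had log2 fold changes of -2.26 and -1.89. ADS1, for an acyl-lipid desaturase, stood at 20.3, 24.8 and 26.4 RPKM in mock and 7.55, 3.97 and 6.82 RPKM with NAA, a log2 fold change of -1.83 ± 0.21 (SE, limma adjusted p = 3.51e-04). ESM1, which shifts glucosinolate breakdown towards isothiocyanates, stood at 334, 354 and 420.1 RPKM in mock and 81.5, 54.1 and 200 RPKM with NAA, a log2 fold change of -1.92 ± 0.42 (SE, limma adjusted p = 0.0162). The ESM1 call was lost without the second mock library, the third mock library or without the second NAA library (limma adjusted p = 0.0537 to 0.0750). The other 19 genes of this set kept their calls without any 1 mock library, the first NAA library or the second, while a call without the third was part of how they were chosen.

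Of 40 tested detoxification genes, 15 rose, 3 fell and 22 were not called, and their median log2 fold change was 0.72, against -0.06 for all genes. Without the third NAA library 17 were called higher (42.5%) and 5 lower (12.5%), with a median of 0.53. Over all genes, for this and the following lists, 3.35% rose and 5.0% fell with all libraries. Without the third NAA library 10.8% of all genes rose and 12.04% fell. The lower share of the detoxification genes lay near the latter. The list holds glutathione transferases, glycosyltransferases and oxidoreductases that respond to xenobiotics and reactive electrophiles. UGT73B4, a glycosyltransferase of small foreign molecules and flavonoids, stood at 9.58, 12.3 and 13.1 RPKM in mock and 77.3, 57.5 and 208 RPKM with NAA, a log2 fold change of 2.97 ± 0.37 (SE, limma adjusted p = 6.03e-04). CYP81D8 had a log2 fold change of 2.26 and GSTU1 of 2.25. OPR2, related to the 12-oxophytodienoate reductases, and AER, an alkenal reductase, were called as well, with log2 fold changes of 1.38 and 1.72. The AER call was lost without the first mock library or without the third mock library (limma adjusted p = 0.0645 to 0.0672). The response divided the glutathione transferase family. GSTU27 stood at 36.2, 36.7 and 38.8 RPKM in mock and 19.98, 16.5 and 12.3 RPKM with NAA, a log2 fold change of -1.17 ± 0.18 (SE, limma adjusted p = 0.00273). GSTU28 had a log2 fold change of -0.96 and GSTF9 of -0.83, both called lower. The GSTF9 call was lost without any 1 library except the third NAA library (limma adjusted p = 0.0508 to 0.0788). Several members were high only in the third NAA library and did not pass the test. GSTU7 stood at 5.45, 6.79 and 6.24 RPKM in mock and 7.87, 8.03 and 47.8 RPKM with NAA, a log2 fold change of 1.14 ± 0.50 (SE, limma adjusted p = 0.179). ABCG40, a pleiotropic drug resistance transporter gene, stood at 1.07, 1.34 and 1.28 RPKM in mock and 0.687, 0.449 and 9.44 RPKM with NAA, a log2 fold change of 0.40 ± 0.88 (SE, limma adjusted p = 0.831). In ABCG40 the first and second NAA libraries lay below mock and the third above it.

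**Figure D2:**
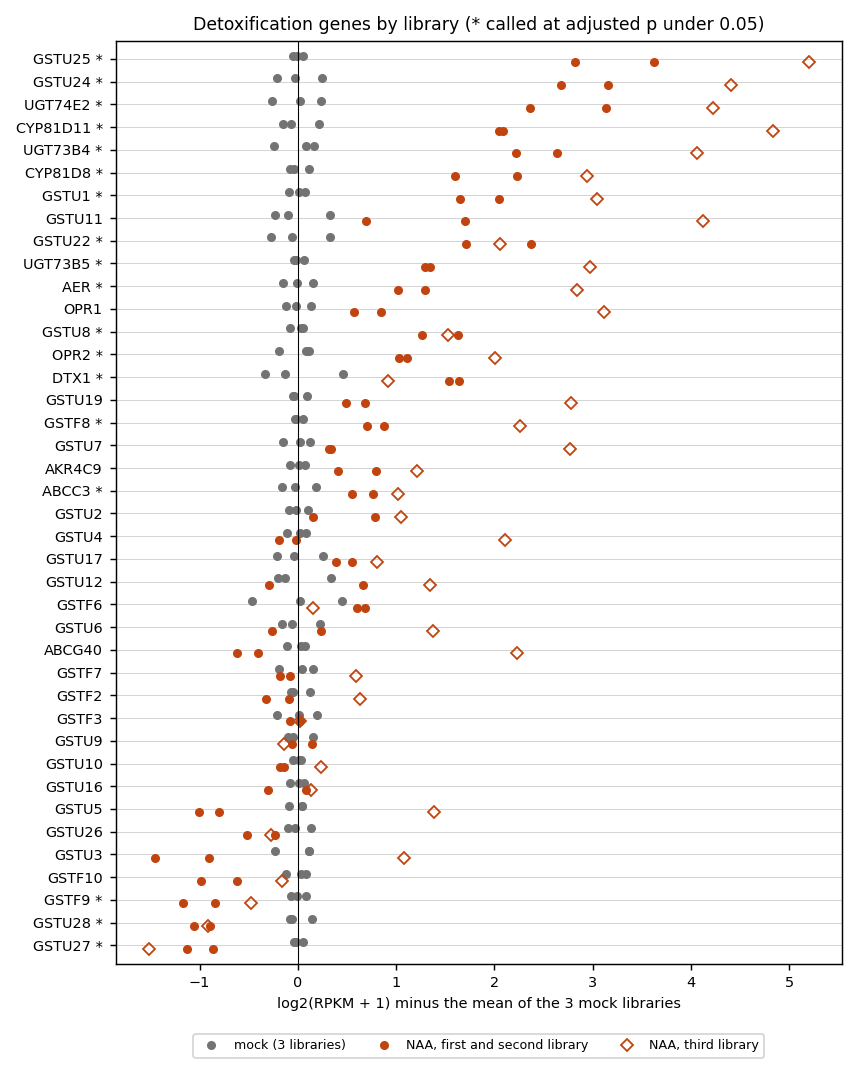
The 40 tested detoxification genes, with log2(RPKM + 1) minus the mean of the 3 mock libraries on the x axis and a point for each wild-type library. Members at the top rose in all 3 NAA libraries, those called lower (GSTU27, GSTU28 and GSTF9) sit at the bottom, and in many members between them the third NAA library (open diamonds) alone stands to the right.

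Of the 23 aquaporin genes, all of which were tested, 12 fell, none (0) rose and 11 were not called. Aquaporins are channels for water and small solutes, of which the TIP group sits mainly in the vacuolar membrane and the PIP group in the plasma membrane. The median log2 fold change was -0.92, and every one of the 23 had a fold change below 0. Without the third NAA library 18 of the 23 were called lower (78.3%, against 12.04% of all genes). Leaving out each wild-type library in turn gave 8 to 18. TIP2;3 stood at 16.9, 19.9 and 20.7 RPKM in mock and 1.88, 2.11 and 0.958 RPKM with NAA, a log2 fold change of -2.95 ± 0.22 (SE, limma adjusted p = 1.55e-05). The 3 NAA values lay close together and far below mock. TIP1;2, the aquaporin gene with the highest level of those shown, stood at 1460.1, 1634 and 1557 RPKM in mock and 481, 487 and 955 RPKM with NAA, a log2 fold change of -1.35 ± 0.22 (SE, limma adjusted p = 0.00371). PIP1;1 stood at 287, 327 and 329 RPKM in mock and 73.6, 82.3 and 128 RPKM with NAA, a log2 fold change of -1.76 ± 0.17 (SE, limma adjusted p = 1.23e-04). The third library was nearest to mock in both, as in most members. PIP2;2 stood at 173, 183 and 186 RPKM in mock and 40.2, 53.5 and 104 RPKM with NAA, a log2 fold change of -1.56 ± 0.27 (SE, limma adjusted p = 0.00578). Its near-identical neighbour PIP2;3 stood at 75.9, 79.8 and 85.7 RPKM in mock and 15.7, 25.1 and 81.6 RPKM with NAA, a log2 fold change of -1.30 ± 0.44 (SE, limma adjusted p = 0.0886). Reads shared by PIP2;2 and PIP2;3 may have been split between them by the counting. In NIP5;1, a boric acid channel gene, and TIP2;2 the order was the other way round, with the third NAA library lowest. NIP5;1 stood at 45.3, 42.5 and 43.9 RPKM in mock and 21.5, 21.3 and 8.15 RPKM with NAA, a log2 fold change of -1.43 ± 0.30 (SE, limma adjusted p = 0.0135). The NIP5;1 call was lost without the first mock library or without the third mock library (limma adjusted p = 0.0517 to 0.0579). TIP2;2 stood at 90.8, 85.2 and 95.3 RPKM in mock and 42.2, 50.3 and 18.9 RPKM with NAA, a log2 fold change of -1.37 ± 0.26 (SE, limma adjusted p = 0.00929).

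**Figure D3:**
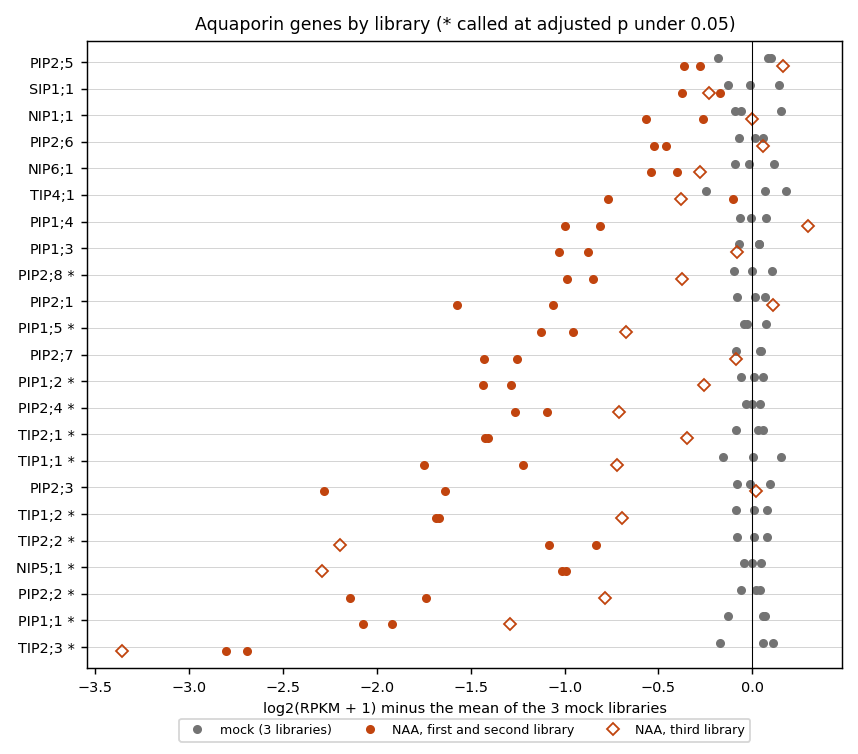
The 23 aquaporin genes, with log2(RPKM + 1) minus the mean of the 3 mock libraries on the x axis and a point for each wild-type library. The first and second NAA libraries (filled) lie below 0 for all members, while the third (open diamonds) lies near 0 or above it for PIP2;5, PIP2;6, PIP1;4, PIP1;3, PIP2;1, PIP2;7, PIP2;3 and NIP1;1.

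Several of these genes, IRT1 and TIP2;3 among them, are expressed mainly in roots. Root markers were called in both directions, although 5 of the 6 tested had a fold change below 0. Of 8 root marker genes, 6 were tested, 2 fell and 1 rose, and their summed level was 482 to 557 RPKM in the mock libraries and 305 to 384 RPKM in the NAA libraries, most of it from PYK10. PYK10, a root beta-glucosidase gene, stood at 480.1, 403 and 443 RPKM in mock and 229, 265 and 317 RPKM with NAA, a log2 fold change of -0.72 ± 0.16 (SE, limma adjusted p = 0.0212). The PYK10 call was lost without the first mock library, the third mock library, the first NAA library or without the second NAA library (limma adjusted p = 0.0701 to 0.0858). COBL9, a gene of growing root hairs, stood at 2.35, 1.99 and 2.52 RPKM in mock and 0.800, 0.460 and 0.307 RPKM with NAA, a log2 fold change of -1.12 ± 0.25 (SE, limma adjusted p = 0.0180). The COBL9 call was lost without the first mock library, the third mock library or without the second NAA library (limma adjusted p = 0.0625 to 0.0802). PHO1, which loads phosphate into the xylem, stood at 20.8, 22.4 and 21.1 RPKM in mock and 29.6, 30.1 and 36.1 RPKM with NAA, a log2 fold change of 0.55 ± 0.15 (SE, limma adjusted p = 0.0392). The PHO1 call was lost without any 1 library except the third NAA library (limma adjusted p = 0.0607 to 0.130). The endodermal genes SCR and CASP1 and the stele gene SHR had log2 fold changes of -0.31, -1.15 and -0.19 and were not called, and the root cap genes SMB and BRN1 were below the level tested. Of 9 shoot markers, 7 were tested and none (0) was called with all libraries. The summed level of the 9 was 22440 to 23690 RPKM in mock and 16870 to 19350 RPKM in NAA. CAB1, a light-harvesting antenna gene with near-identical copies, had a log2 fold change of -0.63 (limma adjusted p = 0.0585). Without the third NAA library CAB1 was the 1 shoot marker called, lower, with a log2 fold change of -0.83 (limma adjusted p = 0.00720). Of 10 seed and flower markers only PI reached the level tested and was not called, the summed level was 2.26 to 5.53 RPKM, and OLEO1 and VGD1 are listed at 0 in all 6 libraries. In RNA from whole seedlings fewer cells of a type and less RNA per cell cannot be told apart, and the part of the root markers in the other results was not tested.

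Of 14 tested iron uptake genes, 2 rose and 3 fell, the falls being those of IRT1, FRO2 and COPT2. Without the third NAA library 3 rose (21.4%) and 5 fell (35.7%), against 10.8% and 12.04% of all genes. The rises with all libraries were those of ABCG37 and BTS, an E3 ligase gene that restrains the iron deficiency response. BTS had a log2 fold change of 0.79. The BTS call was lost without any 1 mock library (limma adjusted p = 0.0758 to 0.101). FRO2, the root ferric reductase that works ahead of IRT1, stood at 5.48, 5.89 and 7.44 RPKM in mock and 0.514, 0.491 and 0.637 RPKM with NAA, a log2 fold change of -2.22 ± 0.14 (SE, limma adjusted p = 6.88e-06). The 3 NAA values lay close together, unlike those of IRT1. COPT2, a copper transporter gene also used in iron deficiency, stood at 9.36, 7.31 and 8.77 RPKM in mock and 3.29, 4.17 and 4.10 RPKM with NAA, a log2 fold change of -0.96 ± 0.16 (SE, limma adjusted p = 0.00423). ABCG37, a root exporter of coumarins and of auxinic compounds, stood at 5.74, 5.64 and 5.78 RPKM in mock and 18.0, 11.1 and 13.3 RPKM with NAA, a log2 fold change of 1.14 ± 0.17 (SE, limma adjusted p = 0.00215). Of 8 iron storage genes, 1 rose, VTL5, a vacuolar iron transporter-like gene, and 4 (50.0%) rose without the third NAA library. VTL5 stood at 38.0, 48.3 and 46.5 RPKM in mock and 120.5, 96.6 and 88.5 RPKM with NAA, a log2 fold change of 1.18 ± 0.17 (SE, limma adjusted p = 0.00166). The groups did not overlap in COPT2, ABCG37 or VTL5, and these 3 genes kept their calls without any 1 wild-type library.

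The sulfur limitation genes had a median log2 fold change of -0.66, and 3 of 19 tested fell with none (0) rising. Without the third NAA library, 10 of the 19 (52.6%) were called lower, against 12.04% of all genes. SDI1, a repressor of glucosinolate synthesis raised by sulfur deficiency, stood at 6.01, 7.75 and 9.43 RPKM in mock and 0.106, 0.241 and 0.923 RPKM with NAA, a log2 fold change of -2.64 ± 0.38 (SE, limma adjusted p = 0.00182). LSU2 stood at 7.85, 8.27 and 8.13 RPKM in mock and 2.04, 1.07 and 3.90 RPKM with NAA, a log2 fold change of -1.53 ± 0.37 (SE, limma adjusted p = 0.0251). The LSU2 call was lost without any 1 library except the third NAA library (limma adjusted p = 0.0612 to 0.102). BGLU28, a beta-glucosidase that breaks down glucosinolates under sulfur deficiency, stood at 2.73, 2.85 and 3.48 RPKM in mock and 0.138, 0.283 and 0.353 RPKM with NAA, a log2 fold change of -1.67 ± 0.44 (SE, limma adjusted p = 0.0369). The BGLU28 call was lost without any 1 library except the third NAA library (limma adjusted p = 0.0907 to 0.130). APR1, an enzyme of sulfate reduction, was low in the first and second NAA libraries and just above the mock range in the third. APR1 stood at 21.8, 20.9 and 28.4 RPKM in mock and 7.01, 5.13 and 28.6 RPKM with NAA, a log2 fold change of -1.11 ± 0.48 (SE, limma adjusted p = 0.174).

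Glucosinolates are the sulfur-rich defence compounds of the cabbage family, made from methionine (aliphatic) or tryptophan (indole). Of 19 tested genes of the aliphatic branch, 8 fell and none (0) rose, with a median log2 fold change of -0.50. Without the third NAA library 10 fell (52.6%), against 12.04% of all genes. MYB28, the main activator of the branch, stood at 13.2, 10.6 and 13.0 RPKM in mock and 3.96, 2.24 and 2.30 RPKM with NAA, a log2 fold change of -1.81 ± 0.18 (SE, limma adjusted p = 1.43e-04). MAM3, which elongates the methionine chain, stood at 31.3, 28.7 and 33.8 RPKM in mock and 10.8, 5.42 and 2.83 RPKM with NAA, a log2 fold change of -2.28 ± 0.33 (SE, limma adjusted p = 0.00166). The third NAA library was the lowest for MAM3 and close to the second for MYB28. CYP79F2, which makes the aldoxime of the long chains, stood at 4.74, 4.83 and 6.89 RPKM in mock and 1.62, 0.887 and 1.57 RPKM with NAA, a log2 fold change of -1.46 ± 0.16 (SE, limma adjusted p = 3.17e-04). IPMI1, also of chain elongation, had a log2 fold change of -1.73, and CYP83A1, SOT18, LEUD1 and BCAT4 made up the 8. The SOT18 call was lost without the third mock library (limma adjusted p = 0.0708). The LEUD1 call was lost without any 1 mock library or the second NAA library (limma adjusted p = 0.0782 to 0.134). The BCAT4 call was lost without any 1 mock library or the second NAA library (limma adjusted p = 0.0731 to 0.0765). MYB29, a second activator, stood at 0.854, 0.311 and 0.133 RPKM in mock and 0.299, 0.357 and 0.0446 RPKM with NAA, a log2 fold change of -0.19 ± 0.25 (SE, limma adjusted p = 0.695). It was low throughout and its groups overlapped. In the indole branch, with camalexin, 1 of 19 tested genes rose and 3 fell. Without the third NAA library 2 rose (10.5%) and 7 fell (36.8%), and the share of rises lay near the 10.8% of all genes. MYB34, an activator of the indole branch, stood at 6.21, 4.33 and 6.58 RPKM in mock and 1.96, 1.15 and 1.28 RPKM with NAA, a log2 fold change of -1.44 ± 0.19 (SE, limma adjusted p = 8.80e-04). IGMT5, an indole glucosinolate methyltransferase gene, had a log2 fold change of -1.54. SUR1, the C-S lyase used by both branches, stood at 38.0, 38.97 and 39.1 RPKM in mock and 32.9, 24.6 and 28.4 RPKM with NAA, a log2 fold change of -0.43 ± 0.12 (SE, limma adjusted p = 0.0482). The SUR1 call was lost without any 1 mock library or the second NAA library (limma adjusted p = 0.120 to 0.185). CYP81F3, which oxidises the indole ring, rose with a log2 fold change of 1.05. The CYP81F3 call was lost without any 1 mock library or the first NAA library (limma adjusted p = 0.0887 to 0.148).

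Cell wall genes moved in both directions. Of 22 tested xyloglucan endotransglucosylase/hydrolase genes, 7 fell and 1 rose. The counts were the same without the third NAA library (31.8% lower and 4.55% higher, against 12.04% and 10.8% of all genes). When any other wild-type library was left out 4 to 6 fell, the fewest without the third mock library. XTH9 stood at 63.7, 76.1 and 77.0 RPKM in mock and 14.5, 19.7 and 34.2 RPKM with NAA, a log2 fold change of -1.70 ± 0.23 (SE, limma adjusted p = 0.00108). XTH6 stood at 50.9, 51.6 and 60.6 RPKM in mock and 14.6, 12.9 and 19.8 RPKM with NAA, a log2 fold change of -1.74 ± 0.17 (SE, limma adjusted p = 1.43e-04). In both genes all NAA values lay below all mock values. XTH4, XTH31 and XTH16 had log2 fold changes of -0.60, -1.18 and -1.32. The XTH4 call was lost without any 1 library except the third NAA library (limma adjusted p = 0.0553 to 0.132). The XTH31 call was lost without any 1 mock library or the second NAA library (limma adjusted p = 0.0717 to 0.136). The XTH16 call was lost without the third mock library (limma adjusted p = 0.0540). XTH19, an auxin-responsive root member, was the 1 that rose. XTH19 stood at 22.0, 26.4 and 29.0 RPKM in mock and 79.1, 73.5 and 109.6 RPKM with NAA, a log2 fold change of 1.71 ± 0.19 (SE, limma adjusted p = 3.15e-04). Of 15 tested expansin genes, whose products loosen walls without cutting them, 3 rose and 1 fell. Without the third NAA library 4 rose (26.7%) and 2 fell (13.3%), and the share of falls lay near that of all genes. EXPA4 stood at 25.2, 25.4 and 25.0 RPKM in mock and 49.1, 51.0 and 58.7 RPKM with NAA, a log2 fold change of 1.04 ± 0.15 (SE, limma adjusted p = 0.00154). EXLA3 stood at 2.41, 2.58 and 2.81 RPKM in mock and 7.59, 7.89 and 5.03 RPKM with NAA, a log2 fold change of 1.10 ± 0.16 (SE, limma adjusted p = 0.00153). EXPA5 went the other way. EXPA5 stood at 3.97, 2.68 and 4.74 RPKM in mock and 1.15, 1.09 and 1.52 RPKM with NAA, a log2 fold change of -1.07 ± 0.19 (SE, limma adjusted p = 0.00631). EXLA2 had a log2 fold change of 0.87. The EXLA2 call was lost without any 1 mock library or the second NAA library (limma adjusted p = 0.0571 to 0.0950). Of 14 tested root hair genes, COBL9 fell and LRX2, a leucine-rich repeat extensin gene, rose. Without the third NAA library 2 rose (14.3%) and 1 fell (7.14%), shares near those of all genes. LRX2 stood at 9.19, 7.22 and 19.6 RPKM in mock and 30.8, 23.8 and 28.9 RPKM with NAA, a log2 fold change of 1.26 ± 0.33 (SE, limma adjusted p = 0.0356). The LRX2 call was lost without the first mock library, the second mock library, the first NAA library or without the second NAA library (limma adjusted p = 0.0735 to 0.148). The third mock library was far above the other two there. Of 2 tested cell separation genes, HSL2, a receptor kinase gene, fell with a log2 fold change of -0.45. The HSL2 call was lost without any 1 library except the third NAA library (limma adjusted p = 0.0914 to 0.157).

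Of 8 tested genes that act in founder cells of lateral roots, 6 rose and none (0) fell, with a median log2 fold change of 1.75. The count was 6 without the third NAA library too (75.0%, against 10.8% of all genes). The medians over these genes in the first, the second and the third NAA library were 1.73, 1.60 and 1.73 above the mock mean. MAKR4, which acts on founder cell spacing, stood at 0.977, 1.14 and 1.17 RPKM in mock and 16.0, 12.9 and 17.4 RPKM with NAA, a log2 fold change of 2.96 ± 0.25 (SE, limma adjusted p = 5.26e-05). GATA23, an early transcription factor of founder cells, stood at 0.221, 0 and 0.115 RPKM in mock and 2.31, 1.75 and 2.19 RPKM with NAA, a log2 fold change of 1.47 ± 0.17 (SE, limma adjusted p = 4.62e-04). The second mock library is listed at 0 for GATA23. LBD16 stood at 1.67, 0.831 and 1.71 RPKM in mock and 10.9, 7.57 and 8.52 RPKM with NAA, a log2 fold change of 2.06 ± 0.25 (SE, limma adjusted p = 5.74e-04). LBD29 stood at 0.101, 0.201 and 0.198 RPKM in mock and 5.09, 2.51 and 3.45 RPKM with NAA, a log2 fold change of 1.97 ± 0.20 (SE, limma adjusted p = 1.67e-04). Both LBD genes, direct ARF targets, also belong to the early auxin families, as do LBD18 and LBD33. LBD33 stood at 0.564, 0.420 and 0.605 RPKM in mock and 2.28, 3.68 and 9.61 RPKM with NAA, a log2 fold change of 1.84 ± 0.44 (SE, limma adjusted p = 0.0260). The LBD33 call was lost without any 1 mock library or the second NAA library (limma adjusted p = 0.0597 to 0.0891). LRP1 and PUCHI were not called, with log2 fold changes of 0.75 and 0.11. Of 11 homeodomain-leucine zipper class II and organ growth genes, HAT2 and HAT22 rose, and 2 fell besides when the third NAA library was left out. In that comparison 18.2% rose and 18.2% fell, against 10.8% and 12.04% of all genes. HAT2 stood at 71.8, 81.2 and 86.2 RPKM in mock and 314, 289.9 and 230.1 RPKM with NAA, a log2 fold change of 1.78 ± 0.16 (SE, limma adjusted p = 8.22e-05). HAT22 had a log2 fold change of 0.61. With all libraries none (0) of 5 tested shoot meristem and boundary genes was called by limma or had an unadjusted p under 0.05. STM, the shoot meristem homeobox gene, stood at 3.18, 3.33 and 3.23 RPKM in mock and 1.74, 2.16 and 3.94 RPKM with NAA, a log2 fold change of -0.28 ± 0.19 (SE, limma adjusted p = 0.404). Without the third NAA library STM was the 1 gene of the list called, lower, with a log2 fold change of -0.53 (limma adjusted p = 0.0155).

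**Figure D4:**
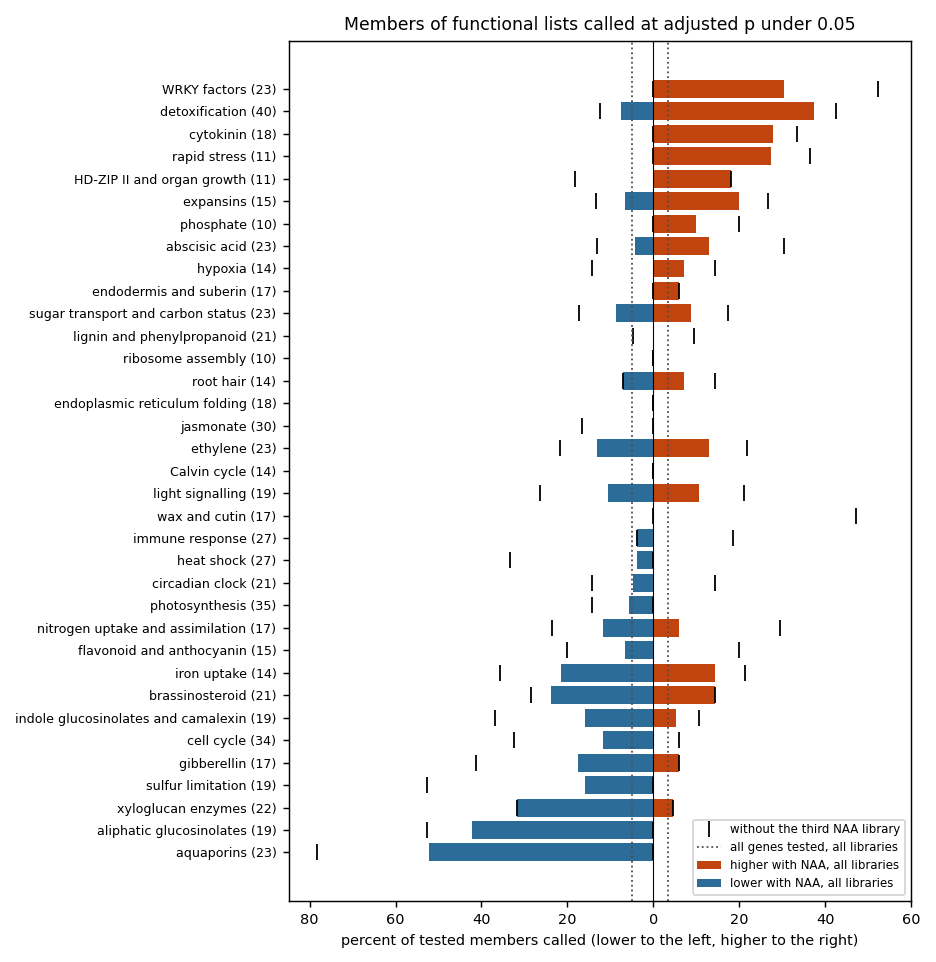
Percent of tested members called higher (right) and lower (left) with NAA for each functional list of at least 10 tested genes, with the number tested in brackets. Bars use all libraries, black ticks leave out the third NAA library, and dotted lines mark the 3.35% higher and 5.0% lower of all genes with all libraries. The aquaporins reach furthest to the left, and detoxification furthest to the right among the bars.

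Genes of other hormones were called in both directions. Beside the counts here and below, 3.35% of all genes rose and 5.0% fell with all libraries. Without the third NAA library the shares of all genes were 10.8% and 12.04%. Of 23 tested ethylene genes, 3 rose and 3 fell, and 5 rose and 5 fell without the third NAA library. The falls numbered 1 without the third mock library and also 1 when the second NAA library was left out. The 3 that rose encode ACC synthases, which make the ethylene precursor, and ACO1 and ACO4, for ACC oxidases, which turn it into ethylene, were among those that fell. ACS4 stood at 0.369, 0.451 and 0.443 RPKM in mock and 17.4, 10.9 and 3.65 RPKM with NAA, a log2 fold change of 2.82 ± 0.37 (SE, limma adjusted p = 9.23e-04). ACS11 stood at 4.77, 4.74 and 5.03 RPKM in mock and 20.3, 18.9 and 12.1 RPKM with NAA, a log2 fold change of 1.60 ± 0.20 (SE, limma adjusted p = 5.74e-04). In both genes the third NAA library was the lowest of the treated libraries. ACS6 had a log2 fold change of 1.33. The ACS6 call was lost without any 1 mock library or the first NAA library (limma adjusted p = 0.0535 to 0.105). ACO1 stood at 7.13, 8.39 and 7.12 RPKM in mock and 2.36, 2.08 and 3.57 RPKM with NAA, a log2 fold change of -1.24 ± 0.21 (SE, limma adjusted p = 0.00448). ACO4 had a log2 fold change of -0.49. The ACO4 call was lost without any 1 library except the third NAA library (limma adjusted p = 0.0864 to 0.134). No ethylene receptor gene was among the calls.

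Of 18 tested cytokinin genes, 5 rose and none (0) fell, all of them for enzymes that activate cytokinin (LOG) or break it down (CKX), and 6 rose without the third NAA library. CKX6 stood at 0.589, 0.561 and 0.766 RPKM in mock and 2.45, 2.58 and 2.71 RPKM with NAA, a log2 fold change of 1.13 ± 0.16 (SE, limma adjusted p = 0.00139). LOG4 stood at 1.06, 0.886 and 0.565 RPKM in mock and 3.90, 3.13 and 1.57 RPKM with NAA, a log2 fold change of 1.03 ± 0.22 (SE, limma adjusted p = 0.0135). The LOG4 call was lost without the third mock library or without the second NAA library (limma adjusted p = 0.0569 to 0.0742). LOG5 had a log2 fold change of 1.00, LOG7 of 0.70 and CKX1 of 0.99. The LOG5 call was lost without the first mock library, the third mock library or without the second NAA library (limma adjusted p = 0.0602 to 0.0891). The LOG7 call was lost without the first mock library, the third mock library or without the first NAA library (limma adjusted p = 0.0626 to 0.0925). The CKX1 call was lost without the second mock library or without the second NAA library (limma adjusted p = 0.0538 to 0.0606). The type-A response regulator ARR5, a common cytokinin readout, had a log2 fold change of -0.01 and was not called.

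Of 21 tested brassinosteroid genes, 3 rose and 5 fell, and 3 rose and 6 fell without the third NAA library. KDR, a small helix-loop-helix gene of light and brassinosteroid responses, stood at 22.0, 23.4 and 28.9 RPKM in mock and 115, 102 and 242 RPKM with NAA, a log2 fold change of 2.48 ± 0.28 (SE, limma adjusted p = 3.50e-04). The synthesis genes DWF1, BR6OX2 and CPD fell, and BAS1, whose product inactivates brassinosteroids, rose. DWF1 stood at 179.7, 179 and 209 RPKM in mock and 69.7, 67.9 and 137 RPKM with NAA, a log2 fold change of -1.12 ± 0.22 (SE, limma adjusted p = 0.0108). The DWF1 call was lost without the third mock library (limma adjusted p = 0.0593). CPD stood at 136, 124 and 132 RPKM in mock and 78.9, 60.9 and 83.1 RPKM with NAA, a log2 fold change of -0.82 ± 0.17 (SE, limma adjusted p = 0.0143). The CPD call was lost without the first mock library, the third mock library or without the second NAA library (limma adjusted p = 0.0590 to 0.0636). BAS1 stood at 8.77, 9.20 and 8.67 RPKM in mock and 16.4, 14.8 and 18.6 RPKM with NAA, a log2 fold change of 0.83 ± 0.15 (SE, limma adjusted p = 0.00699). BR6OX2 had a log2 fold change of -0.96. The BR6OX2 call was lost without any 1 library except the third NAA library (limma adjusted p = 0.0508 to 0.103). BEE3, an early brassinosteroid-response factor, and BES1, a central one, had log2 fold changes of -0.87 and -0.51, and BRL3, a receptor gene, one of 0.58. The BEE3 call was lost without the second mock library, the third mock library or without the second NAA library (limma adjusted p = 0.0541 to 0.0662). The BES1 call was lost without any 1 mock library or the second NAA library (limma adjusted p = 0.0631 to 0.0811). The BRL3 call was lost without any 1 mock library or the first NAA library (limma adjusted p = 0.0543 to 0.0809).

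Of 17 tested gibberellin genes, 1 rose and 3 fell, and 7 fell without the third NAA library. GASA1, a gibberellin-responsive cysteine-rich peptide gene, stood at 608, 640.1 and 531 RPKM in mock and 261, 226 and 179.9 RPKM with NAA, a log2 fold change of -1.43 ± 0.25 (SE, limma adjusted p = 0.00584). GA20OX1, a synthesis gene, stood at 0.638, 0.349 and 0.772 RPKM in mock and 1.84, 1.43 and 1.95 RPKM with NAA, a log2 fold change of 0.79 ± 0.16 (SE, limma adjusted p = 0.0108). The GA20OX1 call was lost without the second mock library (limma adjusted p = 0.0549). GASA4 and the DELLA repressor gene RGA1 had log2 fold changes of -0.80 and -0.49. The GASA4 call was lost without any 1 library except the third NAA library (limma adjusted p = 0.0742 to 0.110). The RGA1 call was lost without any 1 library except the third NAA library (limma adjusted p = 0.0664 to 0.0898). Of 23 tested abscisic acid genes, 3 rose and 1 fell, and 7 rose and 3 fell without the third NAA library. The latter were 30.4% and 13.0%, against 10.8% and 12.04% of all genes, so the share of falls lay near that of all genes. RAB18, a dehydrin gene, stood at 2.17, 3.15 and 2.68 RPKM in mock and 7.67, 6.30 and 4.11 RPKM with NAA, a log2 fold change of 0.91 ± 0.19 (SE, limma adjusted p = 0.0131). The RAB18 call was lost without the first mock library, the third mock library or without the second NAA library (limma adjusted p = 0.0529 to 0.0616). COR47, another dehydrin gene, ABI2, a phosphatase of the pathway, and PYL4, a receptor gene, had log2 fold changes of 0.56, 0.65 and -0.53. The COR47 call was lost without any 1 library except the third NAA library (limma adjusted p = 0.0620 to 0.145). The ABI2 call was lost without any 1 mock library or the first NAA library (limma adjusted p = 0.0695 to 0.129). The PYL4 call was lost without any 1 mock library or the second NAA library (limma adjusted p = 0.0747 to 0.152).

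WRKY transcription factor genes, many of which respond to stress and pathogens, were called in 1 direction with all libraries. Of 23 tested, 7 rose and none (0) fell, with a median log2 fold change of 0.65, and 12 rose without the third NAA library. The rises numbered 4, 4 and 2 without the first, the second and the last mock library. They numbered 6 and 3 without the first and the second NAA library, and 1 gene fell without the first. WRKY51 stood at 2.03, 1.65 and 2.60 RPKM in mock and 18.8, 8.62 and 15.6 RPKM with NAA, a log2 fold change of 2.26 ± 0.30 (SE, limma adjusted p = 9.37e-04). WRKY6 stood at 42.0, 35.1 and 32.2 RPKM in mock and 89.4, 116 and 94.6 RPKM with NAA, a log2 fold change of 1.43 ± 0.24 (SE, limma adjusted p = 0.00461). The 3 NAA values were of similar size for WRKY6. WRKY40 stood at 24.2, 24.9 and 25.0 RPKM in mock and 52.7, 50.7 and 141 RPKM with NAA, a log2 fold change of 1.51 ± 0.35 (SE, limma adjusted p = 0.0217). The WRKY40 call was lost without any 1 mock library (limma adjusted p = 0.0703 to 0.0792). WRKY11 had a log2 fold change of 1.01. The WRKY11 call was lost without any 1 library except the third NAA library (limma adjusted p = 0.0593 to 0.0994). Of 11 rapid stress genes, 3 rose and none (0) fell, and 4 rose without the third NAA library. CBF2, a cold-response activator, stood at 1.75, 1.24 and 1.56 RPKM in mock and 5.29, 7.36 and 4.23 RPKM with NAA, a log2 fold change of 1.37 ± 0.16 (SE, limma adjusted p = 4.69e-04). ZAT12 and STZ, zinc finger genes of early stress responses, had log2 fold changes of 1.47 and 0.89. The ZAT12 call was lost without any 1 mock library (limma adjusted p = 0.0673 to 0.0867). The STZ call was lost without any 1 mock library (limma adjusted p = 0.0701 to 0.0834). Of 7 mitochondrial stress genes, 3 rose and none (0) fell, with or without that library. NDB2, an alternative NADH dehydrogenase gene, stood at 5.52, 4.43 and 4.92 RPKM in mock and 14.0, 10.3 and 21.0 RPKM with NAA, a log2 fold change of 1.38 ± 0.21 (SE, limma adjusted p = 0.00204). AOX1A, the alternative oxidase that works with it, stood at 18.2, 18.7 and 16.8 RPKM in mock and 30.6, 29.7 and 51.2 RPKM with NAA, a log2 fold change of 0.97 ± 0.21 (SE, limma adjusted p = 0.0175). The AOX1A call was lost without any 1 mock library (limma adjusted p = 0.0546 to 0.0790). DIC2, a mitochondrial dicarboxylate carrier gene, had a log2 fold change of 0.94. Of 14 hypoxia genes only SUS1, a sucrose synthase gene, was called, with a log2 fold change of 1.04, and 2 rose and 2 fell without the third NAA library.

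Photosynthesis genes were mostly not called. Of 35 tested nuclear genes of light harvesting and electron transport, 2 fell and none (0) rose, although 32 of the 35 fold changes (91.4%) were below 0, against 58.0% of all genes tested. Their median was -0.17, against -0.06 for all genes, and -0.10 with median-ratio scaling, which put the median of all genes at 0. With the third NAA library left out, 5 fell, or 14.3% against 12.04% of all genes. LHCB4.2, for a light-harvesting antenna protein, stood at 882, 752 and 783 RPKM in mock and 387, 348 and 588 RPKM with NAA, a log2 fold change of -0.90 ± 0.18 (SE, limma adjusted p = 0.0116). The LHCB4.2 call was lost without the first mock library or without the second NAA library (limma adjusted p = 0.0505 to 0.0548). PETE1, a plastocyanin gene, had a log2 fold change of -0.48. The PETE1 call was lost without any 1 library except the third NAA library (limma adjusted p = 0.0661 to 0.105). None (0) of 14 Calvin cycle genes was called, and 2 had an unadjusted p under 0.05. Of 9 tested chlorophyll synthesis genes, PORB, which reduces protochlorophyllide in the light, fell, and 2 fell without the third NAA library. PORB stood at 355, 369 and 405 RPKM in mock and 136, 111 and 185 RPKM with NAA, a log2 fold change of -1.41 ± 0.19 (SE, limma adjusted p = 0.00101). Of 19 light signalling genes, 2 rose and 2 fell, and 4 rose and 5 fell without the third NAA library. ELIP2, an early light-induced protein gene, stood at 3.42, 2.26 and 1.82 RPKM in mock and 10.2, 10.3 and 15.4 RPKM with NAA, a log2 fold change of 1.89 ± 0.19 (SE, limma adjusted p = 1.63e-04). HY5, a central activator of light responses, stood at 15.9, 15.3 and 16.0 RPKM in mock and 9.09, 8.94 and 8.86 RPKM with NAA, a log2 fold change of -0.75 ± 0.12 (SE, limma adjusted p = 0.00297). ELIP1 and PIF4, the latter a growth-promoting phytochrome-interacting factor, had log2 fold changes of 1.09 and -0.86. The ELIP1 call was lost without the second mock library or without the third mock library (limma adjusted p = 0.0513 to 0.0554). The PIF4 call was lost without any 1 library except the third NAA library (limma adjusted p = 0.0691 to 0.128). Of 21 clock genes 1 fell, RVE4, with a log2 fold change of -0.60, and 3 rose and 3 fell without the third NAA library. The latter shares, 14.3% in each direction, lay near the 10.8% and 12.04% of all genes. The RVE4 call was lost without the first mock library or without the third mock library (limma adjusted p = 0.0570 to 0.0631).

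Of 34 tested cell cycle genes, 4 fell, none (0) rose and 29 (85.3%, against 58.0% of all genes) had a fold change below 0, with a median of -0.33. Leaving out the third NAA library gave 2 rises (5.88%) and 11 falls (32.4%), against 10.8% and 12.04% of all genes. Without each other library in turn the fall count reached down to 0. CYCB1;3, a mitotic cyclin gene, stood at 2.17, 2.16 and 2.65 RPKM in mock and 1.14, 1.296 and 1.10 RPKM with NAA, a log2 fold change of -0.61 ± 0.12 (SE, limma adjusted p = 0.0102). The CYCB1;3 call was lost without the third mock library (limma adjusted p = 0.0620). CYCA1;1, CYCA2;3 and CYCD1;1 had log2 fold changes of -0.54, -0.57 and -0.70. The CYCA1;1 call was lost without the first mock library, the third mock library or without the second NAA library (limma adjusted p = 0.0587 to 0.0930). The CYCA2;3 call was lost without the first mock library, the third mock library, the first NAA library or without the second NAA library (limma adjusted p = 0.0553 to 0.0993). The CYCD1;1 call was lost without any 1 library except the third NAA library (limma adjusted p = 0.0644 to 0.121).

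Among nutrient and sugar genes, small numbers were called. Over all genes, 10.8% rose and 12.04% fell without the third NAA library. Of 17 tested nitrogen genes, 1 rose and 2 fell, and 5 rose and 4 fell without the third NAA library. NRT1.5, which loads nitrate into the xylem, stood at 33.9, 26.9 and 33.4 RPKM in mock and 16.4, 13.4 and 4.22 RPKM with NAA, a log2 fold change of -1.56 ± 0.38 (SE, limma adjusted p = 0.0277). The NRT1.5 call was lost without any 1 mock library (limma adjusted p = 0.0664 to 0.103). AMT1;2, an ammonium transporter gene, stood at 3.30, 3.78 and 2.79 RPKM in mock and 7.14, 7.59 and 10.5 RPKM with NAA, a log2 fold change of 1.12 ± 0.23 (SE, limma adjusted p = 0.0130). The AMT1;2 call was lost without the third mock library (limma adjusted p = 0.0687). NRT1.1, the nitrate sensor and transporter, had a log2 fold change of -0.53. The NRT1.1 call was lost without any 1 library except the third NAA library (limma adjusted p = 0.0709 to 0.127). Of 10 phosphate genes only PHO1 was called, and 2 rose without the third NAA library. Of 23 tested sugar transport and carbon status genes, 2 rose and 2 fell, and 4 rose and 4 fell without the third NAA library. STP13, a hexose importer gene, stood at 68.3, 69.3 and 43.0 RPKM in mock and 158, 165 and 149.7 RPKM with NAA, a log2 fold change of 1.41 ± 0.25 (SE, limma adjusted p = 0.00607). SWEET11 and SWEET12, the sucrose exporters of leaf phloem parenchyma, fell together. SWEET11 stood at 95.3, 93.7 and 101 RPKM in mock and 40.2, 24.8 and 53.9 RPKM with NAA, a log2 fold change of -1.33 ± 0.26 (SE, limma adjusted p = 0.0105). The SWEET11 call was lost without the third mock library (limma adjusted p = 0.0512). SWEET12 stood at 61.9, 72.3 and 59.3 RPKM in mock and 36.7, 20.5 and 37.2 RPKM with NAA, a log2 fold change of -1.05 ± 0.21 (SE, limma adjusted p = 0.0107). The SWEET12 call was lost without the second mock library (limma adjusted p = 0.0527). TPS11, a trehalose phosphate synthase-like gene, rose with a log2 fold change of 0.80.

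Several groups had no or single calls with all libraries. None (0) was called by limma of 30 jasmonate genes, 17 wax and cutin genes, 21 lignin and phenylpropanoid genes, 7 xylem and secondary wall genes, 18 endoplasmic reticulum folding genes and 10 ribosome assembly genes, of which 3, 3, 3, 1, 1 and 1 had an unadjusted p under 0.05. The most abundant members of these lists, ST2A, LTPG1, PRX71, XCP2, CNX1 and NUC1, had log2 fold changes of -0.45, 0.22, 0.27, 0.47, -0.17 and -0.08. A single gene was called in 17 endodermis and suberin genes (KCS20, 0.37), 15 flavonoid genes (UGT78D2, -0.56), 27 immune response genes (ICS1, -0.82) and 27 heat shock genes (HSFA7A, -0.66). The KCS20 call was lost without any 1 library except the third NAA library (limma adjusted p = 0.0733 to 0.164). The UGT78D2 call was lost without the first mock library, the third mock library, the first NAA library or without the second NAA library (limma adjusted p = 0.0707 to 0.103). The ICS1 call was lost without any 1 library except the third NAA library (limma adjusted p = 0.0550 to 0.132). The HSFA7A call was lost without any 1 library except the third NAA library (limma adjusted p = 0.0793 to 0.134). PR1, a marker of salicylate responses, was below mock in every NAA library and was not called. PR1 stood at 6.07, 10.2 and 8.31 RPKM in mock and 0.860, 1.62 and 0.0428 RPKM with NAA, a log2 fold change of -2.39 ± 1.06 (SE, limma adjusted p = 0.187).

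The third NAA library parted from the others in named groups of genes, while in other lists the medians were similar across the libraries. Its median distance from the other 2 was 0.23 for early auxin and 0.07 for lateral root genes. It was smaller in some lists, such as brassinosteroid (0.0036) and light signalling genes (-0.00023). Against the mock mean, however, the brassinosteroid medians were 0.01, -0.09 and -0.27 in the first, the second and the third NAA library. Single members could still differ, such as LBD33 with 2.28, 3.68 and 9.61 RPKM in the NAA libraries. For the 105 tested early auxin genes, the median difference from the mock mean was 0.62, 0.56 and 0.76 in the first, the second and the third NAA library. For the 27 tested heat shock genes it was -0.21, -0.40 and 1.71, and for the 30 jasmonate genes -0.33, -0.22 and 0.91. Hypoxia genes stood at -0.08, -0.10 and 0.51. On the other side, iron storage genes stood at 0.66, 0.25 and -0.77, endoplasmic reticulum folding genes at 0.25, 0.07 and -0.60, and chlorophyll synthesis genes at -0.0023, 0.07 and -0.73. Once the third NAA library was left out, 9 heat shock genes and 5 jasmonate genes were called lower and none (0) higher, 8 wax and cutin genes were called higher and none (0) lower, 5 immune response genes were called higher and 1 lower, 3 flavonoid genes higher and 3 lower, 2 lignin genes higher and 1 lower, and 1 endodermis and suberin gene higher. In that comparison 10.8% of all genes were higher and 12.04% lower, so that the lower share of the jasmonate genes, 16.7%, lay near that of all genes, while it was 33.3% for the heat shock genes. None (0) of the xylem, endoplasmic reticulum folding, ribosome assembly and Calvin cycle genes was called there.

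**Figure D5:**
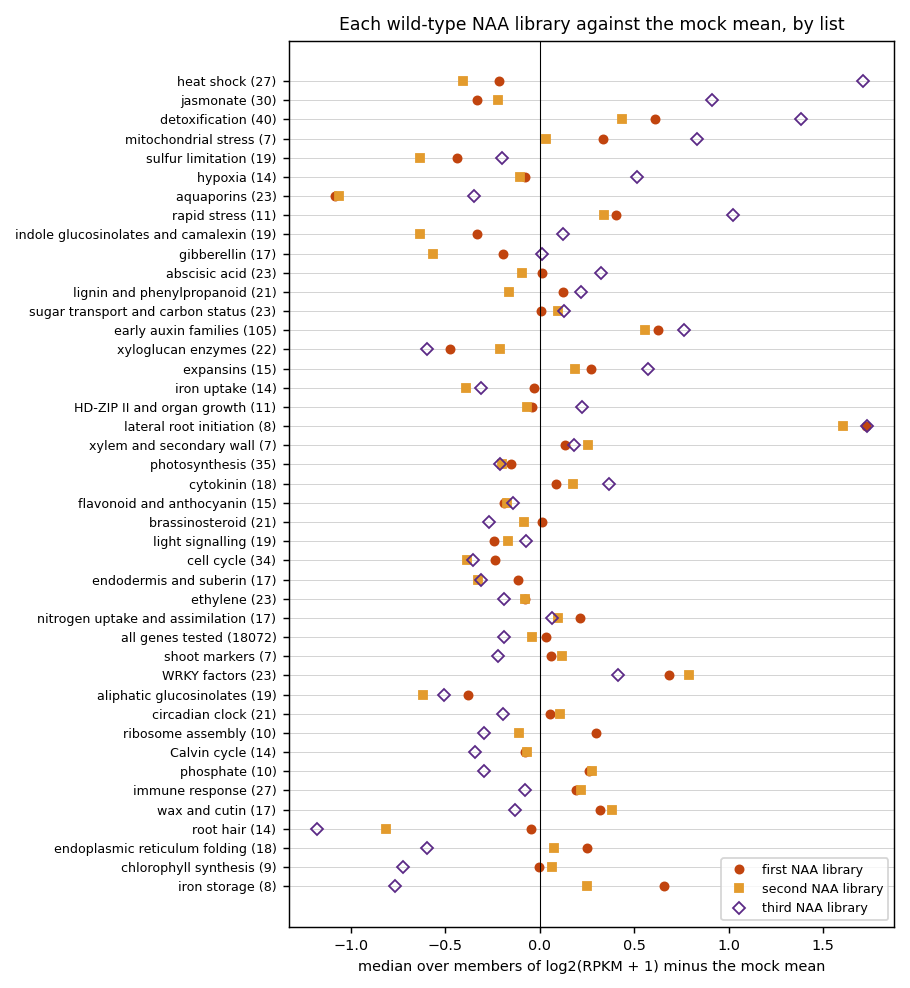
Median over the tested members of each list (number in brackets) of log2(RPKM + 1) minus the mock mean, on the x axis, for each of the 3 wild-type NAA libraries, with lists ordered by the third library's distance from the other two. Heat shock and jasmonate genes at the top lie above 0 in the third library alone. The medians of the lateral root and early auxin genes are similar across the libraries, as are those of several other lists. Iron storage and chlorophyll synthesis genes at the bottom lie below 0 in the third library.

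The 8 genes highest in the third NAA library against the mean of the other 2 included small heat shock protein genes, whose products hold unfolding proteins. HSP17.6A stood at 7.54, 9.77 and 8.98 RPKM in mock and 2.88, 2.62 and 79.0 RPKM with NAA, a log2 fold change of 0.10 ± 0.92 (SE, limma adjusted p = 0.961). HSP17.4 stood at 2.17, 2.55 and 2.61 RPKM in mock and 0.574, 0.347 and 25.7 RPKM with NAA, a log2 fold change of 0.16 ± 0.83 (SE, limma adjusted p = 0.930). HSP23.6-MITO stood at 1.36, 0.935 and 1.17 RPKM in mock and 0.329, 0.341 and 23.3 RPKM with NAA, a log2 fold change of 0.71 ± 0.82 (SE, limma adjusted p = 0.652). In each the first and second NAA libraries were below all mock libraries and the third far above. HSP17.6II, AT1G53540 and AT2G29500 had the same order. SAD6, for an acyl carrier protein desaturase of the hypoxia response, stood at 24.1, 25.9 and 30.8 RPKM in mock and 0.781, 6.62 and 125 RPKM with NAA, a log2 fold change of -1.22 ± 1.09 (SE, limma adjusted p = 0.544). GRX480, a glutaredoxin gene, stood at 3.71, 3.93 and 4.86 RPKM in mock and 2.83, 1.98 and 59.6 RPKM with NAA, a log2 fold change of 0.78 ± 0.89 (SE, limma adjusted p = 0.645).

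Of the 8 lowest, FRK1, a receptor kinase gene of pattern-triggered immunity, stood at 56.9, 26.8 and 5.86 RPKM in mock and 103, 79.3 and 2.16 RPKM with NAA, a log2 fold change of 0.42 ± 1.15 (SE, limma adjusted p = 0.866). NRT2.5, a nitrate transporter gene, stood at 18.3, 16.5 and 2.43 RPKM in mock and 54.6, 24.0 and 1.15 RPKM with NAA, a log2 fold change of 0.46 ± 1.02 (SE, limma adjusted p = 0.834). NAS3, for an enzyme that makes the iron ligand nicotianamine, stood at 37.0, 13.9 and 7.51 RPKM in mock and 57.3, 41.9 and 3.00 RPKM with NAA, a log2 fold change of 0.35 ± 0.82 (SE, limma adjusted p = 0.843). In these 3 genes the third mock library was also the lowest of the mock libraries. ZF1, a zinc finger gene, stood at 25.3, 14.7 and 6.30 RPKM in mock and 45.1, 38.4 and 2.24 RPKM with NAA, a log2 fold change of 0.32 ± 0.81 (SE, limma adjusted p = 0.853). The other 4, AT2G44370, AT5G48430, AT1G51270 and AT1G49000, were likewise lowest in the third mock and the third NAA library within their groups. What set the third library of each group apart was not tested.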

How the data were processed

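Polyadenylated RNA from whole seedlings was sequenced on an Illumina NovaSeq as single-end reads, with dUTP strand-specific libraries described for the series, per the labels' protocols. The authors deposited RPKM values per gene, and per the submitters' processing notes STAR 2.5.3a and the TAIR10 build were used. The counting tool was not given in the sources used here. Columns without NAA in their names were read as mock.

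Values were analysed as log2(RPKM + 1) with limma 3.58.1 in R 4.3.3, a variance trend and empirical Bayes, in a model of 12 libraries in 4 groups of 3. Genes averaging at least 1 RPKM, 18072 in all, were tested two-sided, and p-values were adjusted by Benjamini and Hochberg over all of them. "Rose", "fell" and "called" mean an adjusted p under 0.05. RPKM carries no read totals, so no counting error can be given. Names came from a RefSeq table (assembly TAIR10.1) matching 32548 of 34262 identifiers. The 45 functional lists (888 genes, 35 entries left out because the annotation does not hold their names) and all members were chosen with earlier results of these data known. They are described by counts and medians, with no test of a list.

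Genes were named by a rule: the 10 largest rises and 10 largest falls outside the early auxin families, among genes called with and without the third NAA library whose groups did not overlap, up to 4 called members per list with the largest change, or the most abundant member where none was called, and the 8 highest and 8 lowest genes of the third NAA library. Other list and family members were chosen after their values were seen. Of 105 called genes named by the rule, 55 kept the call without any 1 wild-type library. With the 6 wild-type libraries alone in the model, without the spread of the fip37 LEC1:FIP37 libraries, 31 of the 105 lost the call. Alternatives were other pseudocounts, filters and scalings, wild-type libraries alone, a replicate block, array weights, no trend, and leaving out each library.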

Additional observations from a re-analysis of the deposited data

Results flagged for a closer look

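At 34 of the named genes the NAA change differed between wild type and fip37 LEC1:FIP37, tested as the difference of the 2 changes in the same limma model (adjusted p under 0.05, called at 1.69% of all genes). All 34 were called in wild type, with 3 libraries per group. Most named genes were chosen for a called wild-type change, which is part of the difference tested. The number 34 and the wild-type calls therefore follow partly from the naming, and cannot be set against the 1.69%. Values below are the wild-type log2 change minus the fip37 LEC1:FIP37 log2 change.

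Among detoxification genes the difference was 3.90 for GSTU25, 3.55 for GSTU24, 3.42 for UGT74E2 and 3.06 for UGT73B4. GSTU24 was at 75.4 ± 5.51 RPKM (SD, n = 3) in mock-treated and 68.8 ± 10.7 RPKM in NAA-treated fip37 LEC1:FIP37 seedlings, both far above the wild-type mock values of 8.09 to 11.5 RPKM. The genes AT1G60750 and AT3G60650 differed by 2.95 and 2.60.

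For root transport genes the difference was -2.98 for IRT1, -2.64 for TIP2;3, -2.26 for FRO2, -1.18 for PIP1;1, -1.11 for COPT2 and 1.08 for ABCG37. IRT1 was at 0.0424 ± 0.0117 RPKM (SD, n = 3) in mock-treated fip37 LEC1:FIP37 seedlings and is listed at 0 in all 3 NAA-treated libraries. In that genotype TIP2;3 was at 0.424 ± 0.377 RPKM in mock and 0.127 ± 0.157 RPKM with NAA. FRO2 was at 0.225 ± 0.0874 and 0.255 ± 0.142 RPKM. At such levels log2(RPKM + 1) leaves little room for a fall, so a lost response cannot be read from these 3 genes. Among sulfur, glucosinolate and lipid genes the difference was -2.53 for SDI1, -1.62 for MYB28, -1.15 for CYP79F2 and -2.17 for ADS1, and -2.06 for AT1G28660. In mock-treated fip37 LEC1:FIP37 seedlings SDI1 was at 2.42 ± 1.38 and ADS1 at 1.90 ± 0.179 RPKM (SD, n = 3). With NAA they were at 2.21 ± 1.38 and 2.71 ± 0.803 RPKM. The low mock levels also limit how far these genes could fall, so a lost response cannot be read from them either. In the wall, XTH6 differed by -1.98, XTH9 by -1.71 and EXLA3 by 1.40, and the homeodomain gene HAT22 by 0.711.

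Stress genes differed upwards, WRKY51 by 2.21, WRKY6 by 1.94, STZ by 1.45, NDB2 by 1.65, AOX1A by 1.48, DIC2 by 1.12, SUS1 by 1.35 and ELIP2 by 1.29, as did the hexose importer gene STP13 by 1.92. PORB differed by -1.31, and the cyclin genes CYCB1;3, CYCA2;3 and CYCA1;1 by -0.862, -0.809 and -0.816. CYCB1;3 was at 1.55 ± 0.147 RPKM (SD, n = 3) in mock-treated and 2.04 ± 0.145 RPKM in NAA-treated fip37 LEC1:FIP37 seedlings.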

How the results depend on the processing

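With all libraries 605 genes were higher, 904 lower and 429 called at least 2-fold. Counts stayed within 1.5 times of these with a pseudocount of 0.1 or 0.5, no filter, a mean of at least 5 RPKM, no variance trend, median-ratio scaling and quantile normalization. Array weights, whose estimation did not converge, gave 4075 higher, 5207 lower and 803 at least 2-fold. The 6 wild-type libraries alone gave 387 higher and 418 lower. Alternatives chosen after seeing the data left out the third NAA library: wild type alone gave 3290 higher, 3407 lower and 780 at least 2-fold, wild type without the third library of either group 2674, 2858 and 676, and median-ratio scaling 2724, 2899 and 718. Leaving out each wild-type library gave 284 to 1943 higher, 193 to 2176 lower, and 286 to 734 at least 2-fold.

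A set of 6 small heat shock genes and GRX480 was not called and was positive with all libraries and a pseudocount of 1. Members turned negative in the settings that follow, and the cause was not tested. With all libraries kept, a pseudocount of 0.1 put AT1G53540, HSP17.4 and HSP17.6A at -0.41, -0.35 and -0.03. A pseudocount of 0.5 put AT1G53540 and HSP17.4 at -0.08 and -0.03. The others stayed positive with these pseudocounts. With array weights, AT1G53540, HSP17.6II, HSP17.6A, AT2G29500 and HSP17.4 were at -1.50, -0.93, -1.33, -0.79 and -1.23 on the log2 scale. With median-ratio scaling and the third NAA library left out, the same genes and HSP23.6-MITO were at -1.60, -1.02, -1.37, -0.77, -1.22 and -0.67. In wild type without the third library of either group these 6 and GRX480 were at -1.55, -1.08, -1.36, -0.68, -1.20, -0.68 and -0.51. Leaving out each wild-type library in turn put the 6 at -1.62 to 1.02, -1.03 to 1.25, -1.37 to 0.86, -0.77 to 1.44, -1.24 to 0.92 and -0.69 to 1.41, the lowest being without the third NAA library. With that library left out of wild type alone, the 6 were again at -1.62, -1.03, -1.37, -0.77, -1.24 and -0.69, and GRX480 was at -0.61.

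Whether replicate numbers paired the samples is not clear. The deviations of same-numbered mock and NAA libraries correlated at 0.279, -0.0458 and 0.296 across genes. The first NAA library and the second each correlated best with the first mock library, at 0.279 and 0.333. The third NAA library correlated best with the third mock library, at 0.296, against -0.348 and 0.0379 with the first and the second. The replicate block gave 660 higher, 751 lower and 476 at least 2-fold. Depth is unknown from RPKM, and genes below about 1 RPKM rest on few reads.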

Other observations

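A set of 5 larger families, found by gene name after other values of these data had been seen, held further calls. Of 59 tested NAC transcription factor genes, 6 rose and none (0) fell with all libraries, and 13 rose without the third NAA library. NAC102 stood at 46.6, 60.5 and 56.1 RPKM in mock and 135, 143 and 284 RPKM with NAA, a log2 fold change of 1.69 ± 0.23 (SE, limma adjusted p = 0.00131). ATAF2, a close relative, stood at 82.2, 89.1 and 87.6 RPKM in mock and 179, 150.3 and 381 RPKM with NAA, a log2 fold change of 1.32 ± 0.26 (SE, limma adjusted p = 0.0107). The third NAA library was the highest in both. Of 63 tested MYB factor genes, 1 rose and 7 fell, with 3 to 8 falls when 1 wild-type library was left out and the fewest without the second mock, the last mock or the second NAA library, and MYB30, a regulator of cell death and lipid synthesis in defence, was the rise with a log2 fold change of 0.97. MYB28 and MYB34, the glucosinolate activators, were the largest falls of that family.

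Of 45 tested UDP-glycosyltransferase genes, 10 rose and 4 fell, and 11 rose and 10 fell without the third NAA library. The counts went down to 6 rises and 1 fall without the first mock library, and to 2 falls without the third mock library or the second from NAA. UGT73B3, beside UGT73B4 in sequence, stood at 16.0, 14.5 and 16.1 RPKM in mock and 67.5, 63.5 and 189 RPKM with NAA, a log2 fold change of 2.51 ± 0.31 (SE, limma adjusted p = 5.74e-04). UGT76B1, whose product glucosylates salicylate and related compounds, stood at 17.4, 17.9 and 18.2 RPKM in mock and 61.4, 45.5 and 97.8 RPKM with NAA, a log2 fold change of 1.81 ± 0.26 (SE, limma adjusted p = 0.00161). Members of the UGT73B group are similar in sequence, so reads may have been divided between them. Of 84 tested ABC transporter genes, 14 rose and 4 fell, and 23 rose and 6 fell without the third NAA library. Leaving out 1 other wild-type library gave 6 to 11 rises and 1 to 3 falls, and the rises were at most 8 without any 1 mock library or the first NAA library. ABCC2, a vacuolar pump for conjugates, stood at 6.51, 5.53 and 8.28 RPKM in mock and 14.8, 12.03 and 22.4 RPKM with NAA, a log2 fold change of 1.13 ± 0.19 (SE, limma adjusted p = 0.00497). ABCB4, an auxin transporter gene of roots, rose with a log2 fold change of 0.80, and ABCG14, a cytokinin exporter gene, fell with one of -1.34. The ABCB4 call was lost without any 1 mock library or the first NAA library (limma adjusted p = 0.0542 to 0.0929). Of 132 tested cytochrome P450 genes, 10 rose and 15 fell, and 18 rose and 28 fell without the third NAA library. Leaving out 1 other wild-type library gave 5 to 9 rises, fewest without any 1 mock library, and 8 to 11 falls, with 8 without the third mock library and 8 without the second NAA library. CYP710A2, of sterol synthesis, stood at 5.74, 3.92 and 4.65 RPKM in mock and 0.945, 0.650 and 1.13 RPKM with NAA, a log2 fold change of -1.59 ± 0.17 (SE, limma adjusted p = 2.71e-04). For comparison, 3.35% of all genes rose and 5.0% fell with all libraries, and 10.8% and 12.04% without the third NAA library.

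Of the called genes, 491 that rose and 827 that fell were neither on the functional lists nor in the early auxin families.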
